A study of Mus musculus with 8 samples.

Results

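The Reg genes encode small secreted proteins built around a single C-type lectin domain. All 7 members of the mouse family that were looked for, Reg1, Reg2, Reg3a, Reg3b, Reg3d, Reg3g and Reg4, were found by gene symbol among the 31228 genes of the expression table, and every member is described below. The family was selected on the measured gap of Reg2 and Reg3a between the epithelia, with earlier results of these data known, so values from that contrast are given as a description with no test.

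RNA came from C57BL/6 mice and fell into 4 groups. Epithelium of the extrahepatic bile duct and epithelium of the pancreatic duct, each dissected, minced, digested with collagenase IV for 20 min and lysed at once, gave 1 library each. Organoids, which are hollow epithelial cultures grown in a gel matrix, were raised from either duct and gave 3 libraries per organ after 3 to 4 passages. Their medium held EGF at 50 ng/mL, R-spondin-1 at 100 ng/mL, Noggin at 25 ng/mL and FGF10 at 100 ng/mL, with nicotinamide, N-acetylcysteine and B27, and Wnt3A conditioned medium and Y27632 were withdrawn once a lumen had formed. Age, sex and the number of animals behind each library were not given in the sources used here, so p-values between organoids measure the spread of these cultures, which may be technical.

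In the gut and pancreas the family is known as a set of secreted defence and injury-response proteins. Reg3b and Reg3g are bactericidal lectins of the intestinal epithelium, released by enterocytes and Paneth cells and induced there by interleukin-22 acting through STAT3 and by microbial signals acting through MyD88. Reg1 (lithostathine, or pancreatic stone protein) and Reg2 are secretory products of the exocrine pancreas, and several members are induced strongly in pancreatitis, while Reg4 is a product of secretory and endocrine cells of the gut.

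By the deposited coordinates, 6 of the 7 genes lay together on chromosome 6 (build GRCm38). In order they were Reg3b (ENSMUSG00000071356, 78370657 to 78373466, plus strand), Reg3d (ENSMUSG00000068341, 78375874 to 78378865, minus strand), Reg3a (ENSMUSG00000079516, 78380709 to 78383827, plus strand), Reg2 (ENSMUSG00000023140, 78395623 to 78408106, plus strand), Reg1 (ENSMUSG00000059654, 78422711 to 78428667, plus strand) and Reg3g (ENSMUSG00000030017, 78466269 to 78468872, minus strand). They were the 6 genes that the table lists in this stretch of 98.2 kb. Reg4 (ENSMUSG00000027876) stood apart on chromosome 3, at 98222156 to 98236748 on the plus strand.

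The genes are close relatives in sequence. Over aligned coding bases Reg1 and Reg2 were 82.5% identical, Reg3b and Reg3g 76.4%, Reg3a and Reg3b 74.7%, and Reg3a and Reg3g 73.3%. The longest stretch of coding sequence shared letter for letter by any pair was 35 bases, between Reg3b and Reg3g, and between Reg1 and Reg2 it was 19 bases. How reads that match more than 1 member were counted is not given in the sources used here, so the split between near relatives carries that uncertainty.

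RefSeq promoters (GRCm38.p6) were found for all 7 genes, and 4 are shown, those of Reg2 and Reg3a, on which the family was selected, and those of the bactericidal pair. Each line gives the 150 bases before the RefSeq transcription start, 5′ to 3′ on the gene's own strand, and capitals mark a motif match or the run of 20 bases that Reg3b and Reg3g share directly before the start.
Reg2, chr6:78405005-78405154, plus strand: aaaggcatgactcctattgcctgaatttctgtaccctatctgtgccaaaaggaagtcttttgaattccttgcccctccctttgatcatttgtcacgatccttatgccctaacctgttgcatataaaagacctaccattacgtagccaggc
Reg3a, chr6:78380559-78380708, plus strand: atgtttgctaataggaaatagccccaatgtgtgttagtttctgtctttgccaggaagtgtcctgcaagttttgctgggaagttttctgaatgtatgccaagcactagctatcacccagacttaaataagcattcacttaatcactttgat
Reg3b, chr6:78370735-78370884, plus strand: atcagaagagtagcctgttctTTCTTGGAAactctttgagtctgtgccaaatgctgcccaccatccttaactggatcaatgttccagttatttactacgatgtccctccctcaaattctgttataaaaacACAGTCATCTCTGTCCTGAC
Reg3g, chr6:78468875-78469024, minus strand: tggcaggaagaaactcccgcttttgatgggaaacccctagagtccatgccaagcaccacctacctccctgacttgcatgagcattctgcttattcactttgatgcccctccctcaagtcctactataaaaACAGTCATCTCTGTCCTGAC

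Over the 250 bases before the start, Reg3b and Reg3g were the most alike of all pairs, with 70.0% of aligned bases identical. One GENCODE transcript of Reg3b starts 24 bases further upstream, so in that annotation the shared run belongs to its first exon. A GENCODE transcript of Reg1 likewise covers the last 53 bases before the RefSeq start. For Reg1, Reg2 and Reg3b the RefSeq start lies inside the span of the deposited coordinates, which begins further upstream. The stretches shown for Reg2 and Reg3b are thus upstream of the RefSeq start but lie inside the deposited span. Next, 3 motifs were searched on both strands of the 250 bases. The STAT motif TTCNNNGAA occurred in Reg3b, at -129 to -121 from the start, and in Reg3d, at -238 to -230, and in 7.02% of 32851 RefSeq promoters of the same length. The AP-1 motif TGACTCA occurred in Reg1 at -117 to -111 (4.46% of promoters), and the FOX motif TGTTTAC in Reg4 at -83 to -77 (3.17% of promoters), both on the reverse strand. None of these 3 sets of letters was present in the window of Reg2, Reg3a or Reg3g.

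The FPKM values correspond to 12876471 reads for bile duct epithelium, 15455993 for pancreatic duct epithelium and 15405379 to 20828215 for the organoids. Both epithelia carried RNA of cells other than duct epithelium. The 26 acinar genes examined, which encode digestive enzymes and their regulators, summed to 34013 scaled FPKM in the bile duct library, 73701 in the pancreatic duct library and 4.32 to 10.2 in the organoids, where 16 or 17 of the 26 were listed at 0. The 16 duct genes, led by the keratins Krt8, Krt18 and Krt19, summed in the same order to 3289, 835 and 5577 to 11477. Scaled FPKM here means the deposited FPKM after a trimmed-mean adjustment between the 8 libraries.

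By scaled FPKM, Reg1 was the most abundant member in both epithelia. The bile duct library held 14939 reads of it (1474 scaled FPKM) and the pancreatic duct library 27610 (2299). In the latter Reg2 had more reads (28600) at a nearly equal level (2262). Reg1 ranked 32 among all genes of the bile duct library and 21 among those of the pancreatic duct library. The level in pancreatic duct was 1.56-fold that in bile duct (95% interval 1.53 to 1.59, from read numbers, covering counting error only), a log2 difference of -0.64 on the log2(scaled FPKM + 1) scale that is used for all log2 values.

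Reg2, the closest relative of Reg1, did not follow it. Reg2 had 1121 reads and 105 scaled FPKM in bile duct epithelium against 28600 reads and 2262 scaled FPKM in pancreatic duct epithelium. In the pancreatic duct library it ranked 22, directly after Reg1, and in the bile duct library it ranked 467. Its level was 21.5-fold higher in pancreatic duct (20.3 to 22.9), a log2 difference of -4.42.

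Of the members read in both epithelia, Reg3a had the widest gap. The bile duct library held 76 reads (8.22 scaled FPKM) and the pancreatic duct library 4811 (439), 53.4-fold higher in the latter (42.6 to 67.9), a log2 difference of -5.58. Reg3d, whose gene lies between Reg3b and Reg3a, leaned the same way with a smaller gap. The bile duct library held 202 reads (23.0 scaled FPKM) and the pancreatic duct library 891 (85.8), 3.72-fold higher in the latter (3.19 to 4.36), a log2 difference of -1.85.

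The bactericidal pair leaned to the bile duct. Reg3b had 7041 reads and 549.8 scaled FPKM in bile duct epithelium against 5331 reads and 351 scaled FPKM in pancreatic duct epithelium, 1.56-fold higher in bile duct (1.51 to 1.62), a log2 difference of 0.64. Reg3g had 4712 reads and 199 scaled FPKM in bile duct against 495 reads and 17.6 scaled FPKM in pancreatic duct, 11.3-fold higher in bile duct (10.3 to 12.4), a log2 difference of 3.42. Both genes were thus present in both epithelia, and the gap of Reg3g was the wider.

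Reg4 was read in a single epithelium. The bile duct library held 77 reads (6.73 scaled FPKM) and the pancreatic duct library 0, where 3 reads, the limit that a count of 0 allows, would be 0.221 scaled FPKM. The bile duct level was therefore at least 30.4-fold higher. The log2 difference of 2.95 depends on the added pseudocount of 1 and reached 6.09 with a pseudocount of 0.1.

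**Figure D1:**
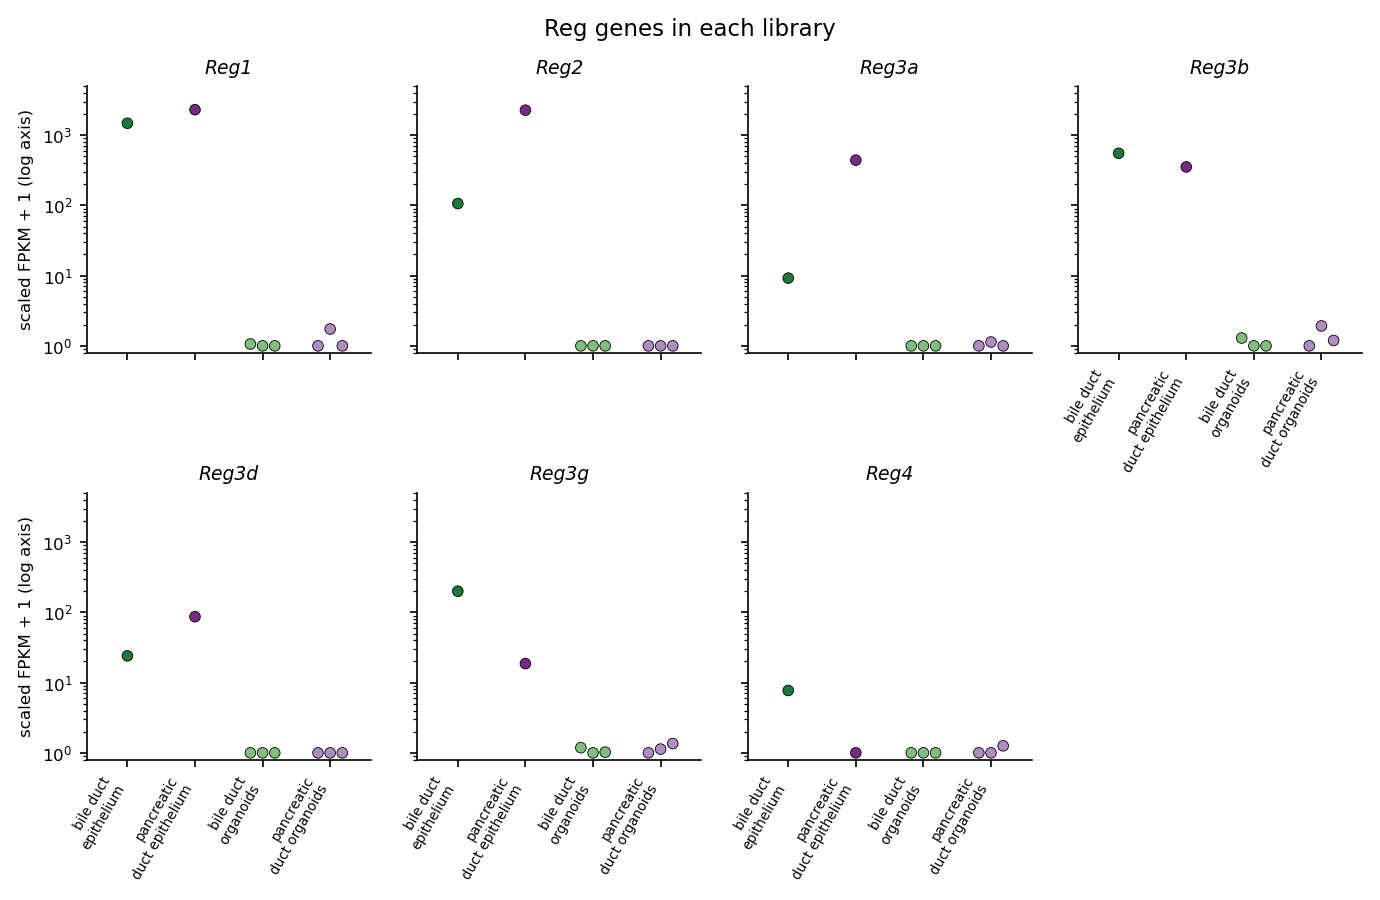
Scaled FPKM + 1 of each Reg gene on a logarithmic axis, 1 point per library, for the 2 epithelia and the 3 organoids of each organ. Reg1, Reg2, Reg3a, Reg3b, Reg3d and Reg3g stand well above 1 in both epithelia, Reg4 in bile duct epithelium, and all organoid points lie at or just above 1.

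Of the 7 genes, 3 (Reg2, Reg3a and Reg3d) were at least 2-fold higher in pancreatic duct epithelium, against 4.57% of the 15524 genes with at least 1 scaled FPKM in either epithelium. Another 2 (Reg3g and Reg4) were at least 2-fold higher in bile duct epithelium, against 9.1% of those genes. The members were chosen with this contrast known, so nothing is read from these counts. The median log2 difference of all 15524 genes was -0.03. With 1 library per epithelium there was no replicate to set any of these gaps against, and in whole tissue a smaller number of expressing cells and less RNA in each cannot be told apart.

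Together the 7 genes took 0.219% of the reads of bile duct epithelium (28168 reads, 95% Wilson interval 0.216% to 0.221%) and 0.438% of those of pancreatic duct epithelium (67738 reads, 0.435% to 0.442%). The make-up of this pool differed between the ducts. In bile duct epithelium Reg1 made up 62.3% of summed Reg FPKM, Reg3b 23.2%, Reg3g 8.4% and Reg2 4.44%. In pancreatic duct epithelium Reg1 made up 42.2%, Reg2 41.5%, Reg3a 8.05% and Reg3b 6.44%. Reg1 thus shared the lead with Reg2 in the pancreatic duct, and with no other member at a like level in the bile duct.

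The order of the levels depended in part on the gene length behind each FPKM value. By merged exon length the order in bile duct epithelium was Reg1, Reg3b, Reg3g, Reg2, Reg3d, Reg3a and Reg4, and in pancreatic duct epithelium Reg1, Reg2, Reg3a, Reg3b, Reg3d and Reg3g, with Reg4 at 0. The merged exons of Reg3g span 2114 bases against a coding sequence of 525, since GENCODE includes a transcript that retains introns. Per coding length, Reg3b stood at 1189 and Reg3g at 800.4 in bile duct epithelium, and Reg3b (760.1) passed Reg3a (686) in pancreatic duct epithelium. Reg3a and Reg4, the lowest pair in bile duct epithelium, also changed places on that scale, at 12.8 and 14.5. The order of these neighbours is therefore not settled by the data.

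**Figure D2:**
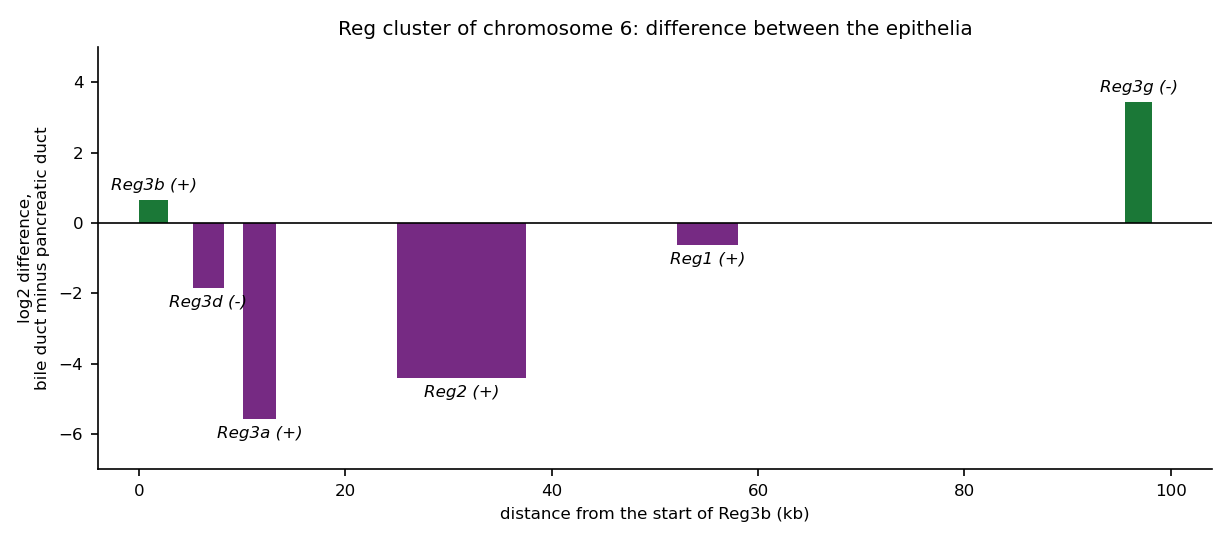
Log2 difference of the 6 clustered Reg genes between the epithelia, bile duct minus pancreatic duct, against distance from the start of Reg3b in kb, with bar width equal to gene length and the strand in brackets. Both outer genes, Reg3b (0.64) and Reg3g (3.42), lie above 0, and the 4 inner genes, from -0.64 for Reg1 to -5.58 for Reg3a, lie below it.

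Along the chromosome, the genes that were higher in bile duct epithelium were the outermost ones. Reg3b opened the cluster and Reg3g closed it, starting 95.6 kb further along. Between them lay Reg3d at 5.2 kb, Reg3a at 10.1 kb, Reg2 at 25.0 kb and Reg1 at 52.1 kb from the start of Reg3b, all with higher values in pancreatic duct epithelium. Neighbours differed in size of gap, since Reg3b and Reg3a, with Reg3d between them, had log2 differences of 0.64 and -5.58. Strand did not separate the directions, as each direction held genes on both strands.

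Acinar genes also differed between the epithelia, and the Reg genes were placed against them. Of 25 acinar genes with at least 1 scaled FPKM, 11 were at least 2-fold higher in pancreatic duct epithelium (4.57% over all genes) and 0 in bile duct epithelium (9.1% over all genes). The list ran from -2.52 (the amylase Amy2b) to -0.09 (the transcription factor Nr5a2) with a median of -0.90. Reg1 lay inside this range, with 16 acinar genes further towards the pancreatic duct and 9 further towards the bile duct. Reg2 and Reg3a lay beyond all 25 on the pancreatic duct side, and Reg3d lay beyond all but 3. That placing holds for the genes listed, since the chymotrypsin gene Ctrc, an acinar gene outside the list, had 15.9 and 549 scaled FPKM and so lay further to that side than Reg2, though not than Reg3a. Reg3b, Reg3g and Reg4 lay beyond all 25 on the bile duct side. How far the acinar RNA contributes to any of these values was not tested.

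Islet and intestinal genes were placed in the same way. Of 12 islet genes that passed the minimum, 4 were at least 2-fold higher on the pancreatic duct side (4.57% over all genes) and 2 on the bile duct side (9.1% over all genes). Their median was -0.56, and Reg2 and Reg3a lay beyond all 12. The list held the insulin genes Ins1 (8.08 scaled FPKM on the bile duct side and 51.9 on the pancreatic duct side) and Ins2 (19.4 and 90.3), and in the other direction the granin Chgb (12.9 and 2.01) and the transcription factor Pdx1 (11.7 and 2.16). The 15 Paneth and goblet cell genes had a median log2 difference of 3.90 and 14 of them were at least 2-fold higher in bile duct epithelium (9.1% over all genes), led by the defensin Defa24 (238 and 0.539) and the goblet cell product Clca1 (361 and 1.51). Reg3g lay amid that list, with 7 genes below it and 8 above, and amid the 16 absorptive cell genes, whose median was 2.87, with 9 below and 7 above. Reg4 had 5 Paneth and goblet cell genes below it and 10 above. With 0 reads in pancreatic duct epithelium its difference is set by the pseudocount of 1, so this place is not settled. Duct genes were higher in bile duct epithelium too, with a median of 1.79 and 13 of 16 at least 2-fold, against the same 9.1%. The part of any of these cell types in the Reg values was not tested.

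**Figure D3:**
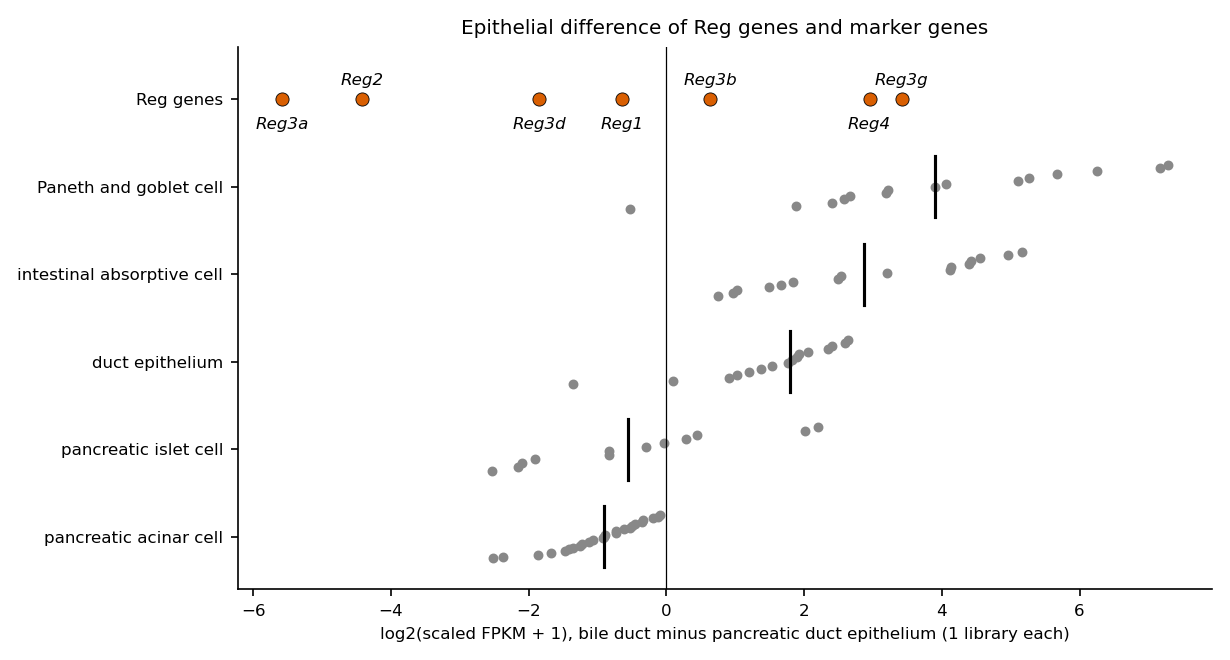
Log2 difference between the epithelia, bile duct minus pancreatic duct, with 1 point per gene for the 7 Reg genes and for 5 lists of marker genes (vertical bars are list medians, and height within a row only separates the points). Reg3a and Reg2 lie to the left of every gene in these lists, which do not hold Ctrc, and Reg3g and Reg4 lie amid the Paneth and goblet and the absorptive cell genes. The place of Reg4, with 0 reads in pancreatic duct epithelium, depends on the pseudocount of 1.

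For each member with at least 10 scaled FPKM in some library, the genes with the most similar profile over the 8 libraries were found by the root mean square difference of centred log2 values among 7591 genes. These distances are a description, and they rest largely on the 2 epithelia because the organoid values of all these genes are near 0. Reg1 was closest to products of the exocrine pancreas, the ribonuclease Rnase1 (0.277), the carboxypeptidase Cpa1 (0.278) and the lipase Cel (0.285). Reg2 had no close match, its nearest genes being the immunoglobulin heavy chain gene Ighm (0.619), the light chain segment Igkv10-96 (0.652) and the zymogen granule protein Gp2 (0.684). Reg3a was nearest to the heavy chain segments Ighv1-69 (0.223) and Ighv11-2 (0.311) and to the chymotrypsin Ctrc (0.312), which had 15.9 scaled FPKM on the bile duct side and 549 on the pancreatic duct side.

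The remaining members had neighbours of yet other kinds. Reg3b was nearest to Cd74 (0.283), the invariant chain of antigen presentation, to the matrix protein Dpt (0.301) and to the complement inhibitor Serping1 (0.321). Reg3d was nearest to Ins2 (0.0882), Amigo2 (0.111) and Mmrn1 (0.111), and Reg3g to the immunoglobulin segments Iglv1 (0.189), Igkv1-117 (0.216) and Ighv5-16 (0.262). Of 12 immune genes past the minimum, 1 lay 2-fold or more to the bile duct side (9.1% over all genes) and 2 to the pancreatic duct side (4.57%), with a median log2 difference of 0.51 towards the bile duct. The part of immune cells in these matches was not tested.

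In organoids the Reg genes were at or near 0. Of the 42 values that 7 genes and 6 organoids give, 31 were 0. Reg2 and Reg3d had 0 reads in every organoid. Reg1 had 1 read in bile duct organoid 1 and 12 in pancreatic duct organoid 2 (0.0615 and 0.736 scaled FPKM) and 0 in the other cultures. Reg3a was read in 1 culture, with 2 reads in pancreatic duct organoid 2 (0.134 scaled FPKM), and Reg4 in 1 culture, with 6 reads in pancreatic duct organoid 3 (0.259).

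The bactericidal pair was read in more cultures. Reg3b had 6 reads in bile duct organoid 1 (0.292 scaled FPKM), 19 in pancreatic duct organoid 2 (0.922) and 5 in pancreatic duct organoid 3 (0.193), with 0 in the remaining cultures. Reg3g had 7 reads in bile duct organoid 1 (0.184), 1 in bile duct organoid 3 (0.0239), 5 in pancreatic duct organoid 2 (0.131) and 17 in pancreatic duct organoid 3 (0.355), and 0 in bile duct organoid 2 and pancreatic duct organoid 1. No Reg gene reached 1 scaled FPKM in any organoid, and the organoids of each organ spanned values from 0 upwards for the pair.

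Summed over the family, bile duct organoids 1, 2 and 3 had 14, 0 and 1 reads, and pancreatic duct organoids 1, 2 and 3 had 0, 38 and 28. The highest share, in pancreatic duct organoid 2, was 0.000216% of its reads (95% Wilson interval 0.000157% to 0.000296%). Bile duct organoid 2 had 0 of 19985787 reads, where 3 reads would be 1.50e-05% and the upper end of the Wilson interval is 1.92e-05%. By share of summed Reg FPKM, Reg3b made up 54.3% and Reg3g 34.2% in bile duct organoid 1, Reg3b 47.9% and Reg1 38.3% in pancreatic duct organoid 2, and Reg3g 44.0% and Reg4 32.1% in pancreatic duct organoid 3. At so few reads the order of members within a culture is not settled.

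**Figure D4:**
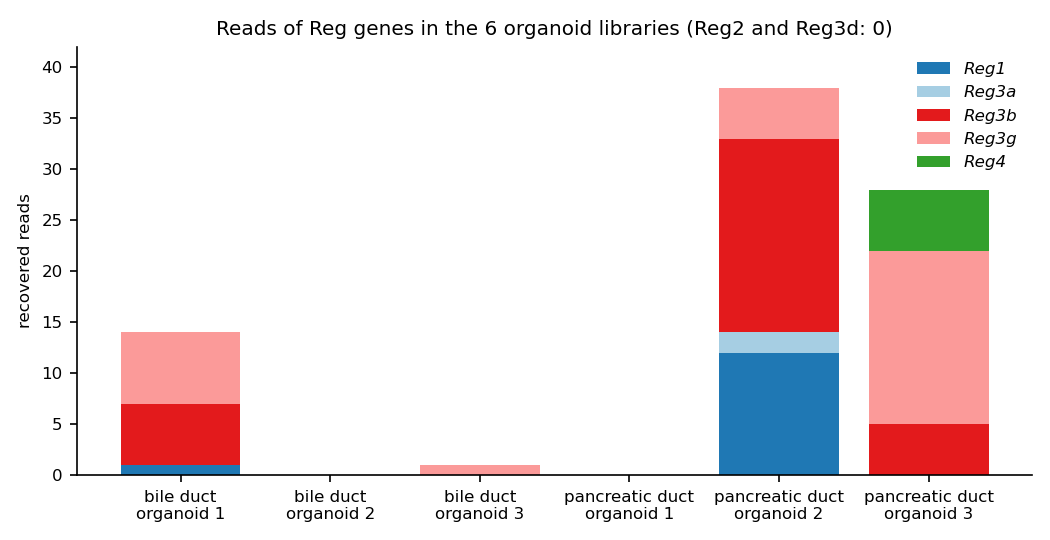
Recovered reads of the Reg genes in each organoid library, stacked by gene. Reads fall in bile duct organoid 1 (14), pancreatic duct organoid 2 (38) and pancreatic duct organoid 3 (28), with 1 read in bile duct organoid 3 and 0 in the other cultures.

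Set against the epithelium of the same organ, all 7 genes were at least 2-fold lower in bile duct organoids with all 3 cultures on the same side, as were 25.9% of 15424 genes. In pancreatic duct all 6 genes that reached 1 scaled FPKM on either side were lower, as were 24.8% of 15191 genes, and Reg4, at 0 in the epithelium, did not reach it. Among all genes so called, 33.4% in bile duct and 38.7% in pancreatic duct were higher in organoids. These shares became 44.5% and 49.5% with the FPKM values as deposited, because the adjustment between libraries moved the organoids against the epithelia by 0.27 and 0.28 on the log2 scale. The median log2 change of all genes was -0.07 in bile duct and -0.06 in pancreatic duct. Each epithelium was a single library, so no test was made.

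The size of the difference from the epithelium could be bounded from read numbers. Counting 3 reads over the 3 organoids of an organ as the limit of a count of 0, Reg2 was at least 1972-fold lower in bile duct organoids and at least 40588-fold lower in pancreatic duct organoids, and Reg3d at least 355-fold and at least 1264-fold lower. In bile duct organoids Reg3a was at least 134-fold and Reg4 at least 135-fold lower than in the epithelium. In pancreatic duct organoids Reg3a, with its 2 reads, was 10241-fold lower (95% interval of counting 2834 to 84590).

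For members with reads on both sides the ratio itself was available. Reg1 was 78860-fold lower in bile duct organoids, on 1 read (14152 to 3114990), and 9796-fold lower in pancreatic duct organoids (5607 to 18960). Reg3b was 6195-fold (2845 to 16886) and 946-fold (635 to 1477) lower, and Reg3g 3109-fold (1577 to 7206) and 95.8-fold (62.6 to 154) lower. Reg3g in the pancreatic duct, where the epithelium itself was low, thus had the smallest ratio of those measured. Single cultures carried these ratios, so each was also computed without each culture. Without bile duct organoid 1, Reg1 and Reg3b had 0 reads left in bile duct organoids, which gives bounds of at least 18304-fold and at least 8627-fold lower, and Reg3g, with 1 read left, was 17320-fold lower (3107 to 684264). Without pancreatic duct organoid 2, Reg1 and Reg3a had 0 reads left in pancreatic duct organoids (at least 26679-fold and at least 4649-fold lower), and Reg3b was 3091-fold lower (1324 to 9523). Without pancreatic duct organoid 3, Reg3g was 253-fold lower (108 to 781).

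Leaving out a culture with 0 reads of the gene in question moved its ratio the other way, within the counting intervals. Without bile duct organoid 2, Reg1 was 50348-fold, Reg3b 3955-fold and Reg3g 1985-fold lower in bile duct organoids. Without bile duct organoid 3, Reg1 was 52458-fold and Reg3b 4121-fold lower. Without pancreatic duct organoid 3, Reg1 was 5870-fold and Reg3a 6137-fold lower in pancreatic duct organoids. Each Reg gene counted as lower above stayed at least 2-fold lower in each case.

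Acinar genes were also lower in organoids. All 25 that passed the minimum were at least 2-fold lower in bile duct organoids and 24 of 25 in pancreatic duct organoids, with medians of -9.61 and -10.31, where 25.9% and 24.8% of all genes were lower. The chymotrypsinogen gene Ctrb1, at 8203 (bile duct) and 22879 (pancreatic duct) scaled FPKM before culture, had 0.050 to 0.172 in the organoids, and the trypsinogen gene Try4 was at 0 in all of them. The 8 fibroblast genes and 6 smooth muscle genes were also all lower in both organs, against the same shares. Duct genes were not, with 8 of 16 higher and 2 lower in bile duct organoids and 14 of 16 higher and 0 lower in pancreatic duct organoids, where 13% and 15.7% of all genes were higher.

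Between bile duct and pancreatic duct organoids, limma called 0 of 12106 genes (0%) at an adjusted p under 0.05, with 305 genes under 0.05 before adjustment. No Reg gene had at least 1 FPKM in at least 3 organoids, so none was tested in that fit. A fit of all 26795 genes with any signal, which called 0 genes and had 683 under 0.05 before adjustment, included 5 Reg genes. Bile duct minus pancreatic duct log2 differences were -0.25 ± 0.23 (SE) for Reg1, -0.06 ± 0.06 for Reg3a, -0.28 ± 0.27 for Reg3b, -0.12 ± 0.13 for Reg3g and -0.12 ± 0.10 for Reg4, each with a Benjamini-Hochberg adjusted limma p of 0.984. At these read numbers a difference in Reg RNA between the organoid groups was not detectable.

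The proposed receptor of Reg proteins, Extl3, a glycosyltransferase of heparan sulfate synthesis, was present in every library. Its level was 15.7 scaled FPKM (bile duct) and 18.2 (pancreatic duct) in epithelium, 16.0, 13.4 and 12.8 in bile duct organoids 1 to 3 and 15.6, 19.8 and 14.6 in pancreatic duct organoids 1 to 3. The organoid groups overlapped, with a log2 difference of -0.22 ± 0.16 (SE, limma adjusted p = 1.00, n = 3 each). Extl3 changed by -0.15 and -0.12 between epithelium and organoids on the log2 scale, under the 2-fold limit, while every Reg gene that reached 1 scaled FPKM in an epithelium was over that limit.

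Receptor and kinase genes of the interleukin-6 and interleukin-22 pathways, which act on Reg genes through STAT3, were examined as a list of 14. Il22ra1, the subunit that makes epithelium responsive to interleukin-22, stood at 4.55 scaled FPKM on the bile duct side and at 0.586 on the pancreatic duct side before culture. In organoids it had 13.8, 17.6 and 16.5 (bile duct) and 18.9, 13.2 and 13.5 (pancreatic duct), so all 6 cultures lay above both epithelia, by 1.61 and 3.35 on the log2 scale. The 16 duct genes had median changes of 1.15 and 3.03, so a rise of this size was not particular to Il22ra1. Il6st, the shared signalling subunit of the interleukin-6 family, went the other way, from 65.4 and 77.1 in the epithelia to between 11.2 and 19.1 in organoids. Stat3 itself had 22.6 and 25.2 in the epithelia and 11.1 to 22.9 in organoids, and the kinase Jak1 had 33.6 and 30.9 against 20.5 to 30.6. Of 13 genes of the list past the minimum, 7 were lower and 1 higher in bile duct organoids and 5 lower and 1 higher in pancreatic duct organoids, with medians of -1.01 and -0.91. The shares over all genes were 25.9% lower and 13% higher (bile duct) and 24.8% lower and 15.7% higher (pancreatic duct).

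Of the 8 ligand genes of these families past the minimum in each organ, 3 were lower and 1 higher in bile duct organoids (median 0.08) and 3 lower and 4 higher in pancreatic duct organoids (median 0.66). Over all genes 25.9% were lower and 13% higher in the bile duct and 24.8% lower and 15.7% higher in the pancreatic duct. Il10, an anti-inflammatory cytokine, stood at 0.340 and 7.76 scaled FPKM before culture and at most at 0.039 in organoids. In the epithelia Lif had 3.18 and 1.89 scaled FPKM and Il11 0.488 and 0.262. The organoids were uneven, with Lif at 25.1, 2.51 and 3.38 in bile duct organoids 1 to 3 and at 7.46, 31.2 and 3.59 in pancreatic duct organoids 1 to 3. Il11 followed the same order, at 3.48, 0.209 and 0.376 and at 1.10, 31.1 and 0.504. Bile duct organoid 1 and pancreatic duct organoid 2, which were high in both, were also 2 of the 3 cultures with most Reg reads, whereas pancreatic duct organoid 3, with 28 Reg reads, was low in both, and pancreatic duct organoid 1, next after those 2 cultures in both, had 0 Reg reads. The part of these ligands in the Reg reads was not tested.

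Among the genes that respond to STAT3, Lcn2, which encodes an antibacterial iron-scavenging protein, stood at 36.0 and 26.7 scaled FPKM before culture, at 525 in bile duct organoid 1 and at 431 in pancreatic duct organoid 2, against 13.1, 11.8, 62.0 and 64.6 in the other cultures. Socs3, a feedback inhibitor of the pathway, had 100.3 and 198 in the epithelia and 10.1 to 30.4 in organoids, with the highest value in pancreatic duct organoid 2. The immediate early gene Fos, at 927 and 1367 in the epithelia, was highest in pancreatic duct organoid 3 (99.8) among organoids. Of 13 STAT3 response genes past the minimum, 6 were lower and 1 higher in bile duct organoids and 8 lower and 3 higher in pancreatic duct organoids, with medians of -0.99 and -1.13, where 25.9% and 24.8% of all genes were lower and 13% and 15.7% higher. Neither Lcn2 nor Socs3 differed between the organoid groups beyond the spread of the cultures (log2 differences of -1.40 ± 1.60 and -0.41 ± 0.37, SE, limma adjusted p = 1.00 for both). Without bile duct organoid 1 the Lcn2 difference became -3.18, with a limma adjusted p of 0.562.

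**Figure D5:**
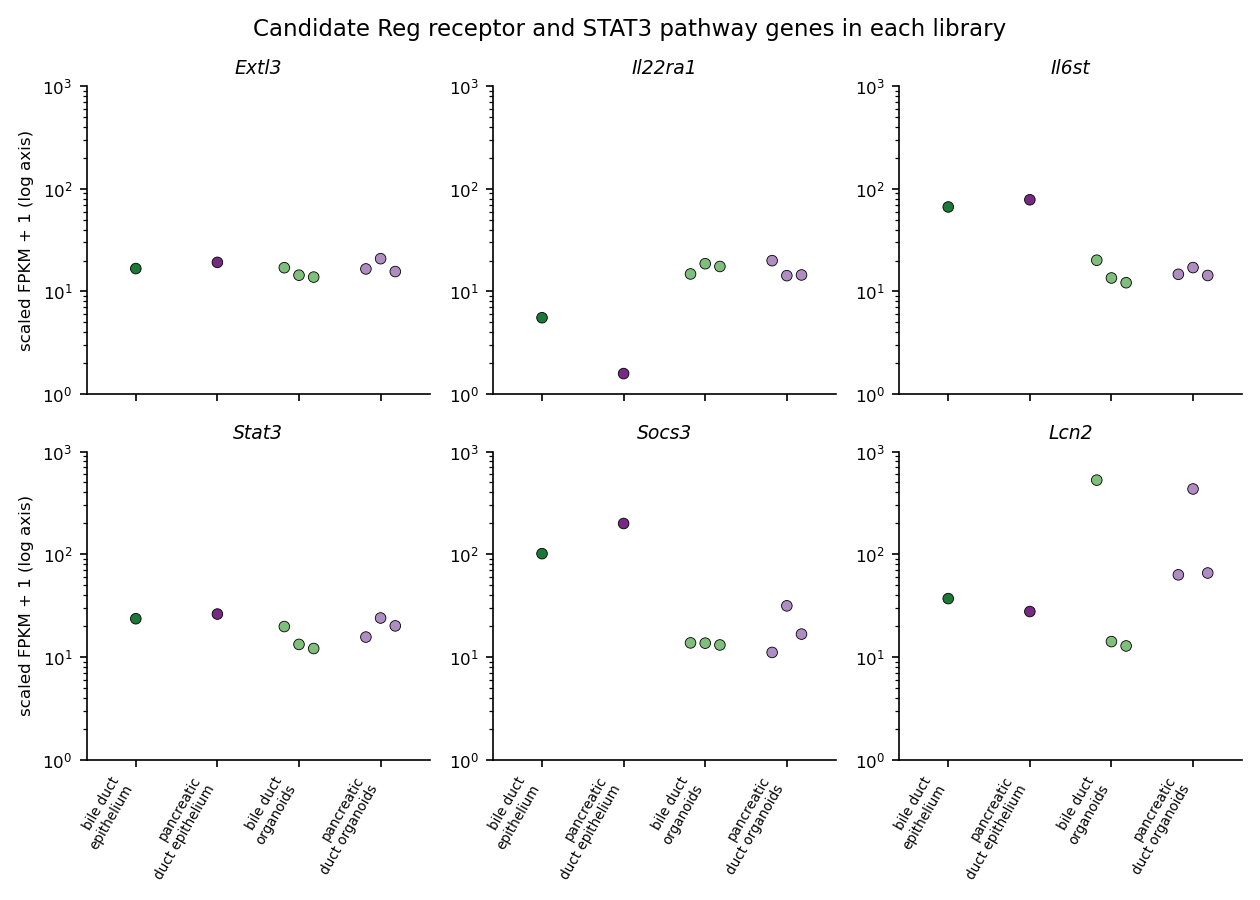
Scaled FPKM + 1 on a logarithmic axis, 1 point per library, of Extl3 and of genes of the STAT3 pathway. Extl3 is level across libraries, Il22ra1 is higher and Il6st and Socs3 are lower in all 6 organoids, and Lcn2 is high in bile duct organoid 1 and pancreatic duct organoid 2.

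Genes of microbial sensing, through which Reg3g is known to be induced, had a median difference of -0.02 between the epithelia, and 0 of 15 were 2-fold apart, against 13.7% of all genes. In the organoids of either organ 4 of 15 were lower and 0 higher, with a median of -0.70 (bile duct) and -0.34 (pancreatic duct). That count lies near the 25.9% and 24.8% of all genes that were lower, so nothing about the list is read from it. These 4 were Tlr1, Tlr2, Tlr9 and Nod1, of which all but Tlr9 are named after their values were seen, and the widest change was that of the intracellular sensor Nod1, from 16.56 and 17.995 scaled FPKM to between 0.05 and 0.31. The adaptor Myd88 stood at 17.3 and 17.0 scaled FPKM before culture and at 7.58 to 12.0 in organoids, and the receptor subunit Il17rc had 17.1 and 13.2 against 11.1 to 16.1.

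Other secreted antimicrobial proteins leaned to the bile duct as Reg3b, Reg3g and Reg4 did. Of 19 such genes past the minimum 14 were at least 2-fold higher on the bile duct side (9.1% over all genes) and 0 on the pancreatic duct side (4.57%), with a median of 2.66. The immunoglobulin transporter Pigr had 395 and 5.67 scaled FPKM, and the mucosal scavenger protein Dmbt1 had 1966 and 379. Unlike the Reg genes, part of this list was present in organoids. The peptidoglycan receptor Pglyrp1 had 93.5 and 7.25 in the epithelia and 126 to 399 in organoids, and Wfdc2 had 77.0 and 12.5 against 184 to 382. In bile duct organoids 12 of 19 were lower and 3 higher, with a median of -2.67, and in pancreatic duct organoids 7 of 16 were lower and 6 higher, with a median of 0.47, against the same shares over all genes (25.9% and 24.8% lower, 13% and 15.7% higher).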

How the data were processed

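The authors deposited 1 table of 31228 genes with 1 FPKM column per library. FPKM divides the reads of a gene by its exon length and by the depth of the library. The unit is not named in the file header and was read from the values. Bowtie2 2.2.3, HISAT2 2.1.0, TopHat2 and HTSeq 0.6.0 are named, with no role, in the submitters' processing notes, and the kit is a poly-T selected NEBNext Ultra preparation, per the labels' protocols. Of 31099 genes with a merged exon length in GENCODE M21, 90.9% gave whole reads in all 8 libraries within 0.05 of a read, and read numbers were recovered from these steps. Whether a step is a single read or a read pair is not given in the sources used here, and counting intervals take each step as 1 independent count. No per-sample column was left aside (0).

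The members and lists were chosen with earlier results of these data known. Values were scaled over the 8 libraries by a trimmed mean of log ratios (30% of ratios and 5% of levels trimmed on each side). Comparisons with an epithelium count genes at least 2-fold apart on log2(scaled FPKM + 1), a scale that understates changes of low genes, and have no test. Organoids were scaled among themselves and tested with limma 3.58.1 (R 4.3.3, intensity trend, two-sided, Benjamini-Hochberg over the 12106 genes that reached 1 FPKM in 3 or more organoids). On simulated data with 200 of 12106 genes changed, 69% were recovered (84.5% of the 4-fold ones) and 6 of 144 calls were false. Genes were drawn there independently of each other, so these rates do not allow for deviations that cultures share across genes. Intervals of ratios and shares (95%) and floors of 3 reads cover counting error only. Alternatives were the deposited scaling, median-of-ratios scaling, a pseudocount of 0.1, no filter, the replicate block, leaving out each organoid and, chosen after seeing the data, coding length. Genes named are all members and the 3 nearest profiles of each member with at least 10 scaled FPKM. List genes were named from the 3 of highest mean level and the 2 of widest epithelial difference of each list. Not all of these are given. Left out were, among others, Hp of the STAT3 list and Lypd8 of the antimicrobial list. In bile duct and pancreatic duct epithelium Hp had 18.5 and 2.34 scaled FPKM, and Lypd8 212 and 2.76. Outside this rule, Nr5a2 is named as the end of its list's range, and Tlr1, Tlr2, Nod1, Mmp7 and Cftr are named too, all after their values were seen. Promoters are RefSeq's, and identities were computed with Biopython 1.88. Tables and figures used Python 3.11.15 with pandas 2.3.3, numpy 2.4.6, scipy 1.17.1 and matplotlib 3.10.9.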

Additional observations from a re-analysis of the deposited data

Results flagged for a closer look

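Among the listed genes with at least 1 scaled FPKM in both organs, 4 moved in opposite directions from epithelium to organoid in bile duct and pancreatic duct, with all 3 cultures of each organ on one side. The galectin gene Lgals4, of the absorptive cell list, changed by a log2 value of -1.30 ± 0.75 (SD, n = 3) in the bile duct cultures and 4.55 ± 1.14 in the pancreatic duct cultures, -5.85 apart. Prom1, of the duct list, changed by -1.56 ± 0.38 and by 1.32 ± 0.21, -2.88 apart. Mmp7, a matrix protease of Paneth cells, changed by -3.02 ± 0.95 and by 1.36 ± 1.18, -4.38 apart. The chloride channel gene Cftr, of the duct list, changed by -0.98 ± 0.53 and by 1.08 ± 0.21, -2.07 apart. The difference was not tested for any of them, since each epithelium is 1 library. All 4 genes were higher in bile duct than in pancreatic duct epithelium, Lgals4 at 289 against 7.09, Prom1 at 73.6 against 10.98, Mmp7 at 84.5 against 1.48 and Cftr at 5.79 against 0.63 scaled FPKM. The Reg genes say nothing about such a pattern. They were at or near 0 in every organoid, so none had all cultures of an organ above its epithelium. Reg4 did not reach 1 scaled FPKM on either side in the pancreatic duct. The share of all genes with this pattern is not given here, so nothing is read from the number found.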

How the results depend on the processing

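All 7 epithelial differences of the Reg genes kept their direction under the deposited scaling, median-of-ratios scaling and a pseudocount of 0.1 (21 values). Dropping the filter cannot change a gene's own difference and is not counted. The widest range was that of Reg4, from 2.78 to 6.09, and the others moved by little (Reg3a from -5.72 to -5.54). The count of genes 2-fold apart between the epithelia went from 1957 to 3047, the latter with a pseudocount of 0.1. Of the values for the change to organoids, 55 moved by no more than the spread of the cultures, 29 moved further and 0 reversed. All 29 came from a change of scaling or pseudocount, and every value moved further with a pseudocount of 0.1. Leaving out a culture always stayed within the spread, which comes from those same cultures. Members at 0 in all cultures of an organ had a spread of 0, so any shift counted as further. Per coding length, Reg3b passed Reg3a in pancreatic duct epithelium (log2 ratio 0.15), a check chosen after seeing the data.

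Leaving out each organoid in turn gave 0 to 11 called genes between the organoid groups, the 11 (1 higher in bile duct, 10 in pancreatic duct) without pancreatic duct organoid 3. A fit in which the replicate number formed a block called 0 genes, with 284 under 0.05 before adjustment. Deviations of cultures with the same number correlated at -0.106, -0.441 and 0.48, and those of different number from -0.596 to 0.65. So few values cannot show whether the numbers pair the samples. The other settings called 0. Ratios of reads without each culture, chosen after seeing the data, stand beside the ratios they alter. Organoid values rest on at most 19 reads per gene and library.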
